A study of Mus musculus with 8 samples.

Results

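Ephrins are cell-surface ligands, and the Eph receptors that bind them form the largest family of receptor tyrosine kinases. Ephrin-A ligands are held in the membrane by a lipid anchor and mainly bind EphA receptors, ephrin-B ligands span the membrane and mainly bind EphB receptors, and Epha4 also binds ligands of the B class. Because ligand and receptor both sit on cells, contact signals in both directions, forward through the receptor's kinase and reverse through the ligand, and the family is best known for repelling growing axons, for keeping cell populations apart and for the separation of arteries from veins. The genes described here were chosen by name, though with earlier results of these data known. They were the ligands Efna1, Efna2, Efna5, Efnb1 and Efnb2 and the receptors Epha3, Epha4, Ephb2, Ephb3 and Ephb4. Of these 10 genes, 8 were measured among the 12148 genes of the expression table, and Epha3 and Ephb2 were not analysed here.

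The dental pulp (DP) of mandibular first molars was taken at postnatal day 7 (P7) from C57BL/6J mice of both genotypes. The control mice carried Osterix-Cre, in which the Osterix promoter drives Cre recombinase in the dental mesenchyme and its odontoblasts, and gave 4 libraries (numbers 49 to 52). The Tgfbr2cko mice carried the same Osterix-Cre together with Tgfbr2 alleles flanked by loxP sites (Osterix-Cre:Tgfbr2f/f), and gave the other 4 libraries (numbers 53 to 56). The left and right molars of a mouse were combined, so a library holds every cell type of the pulp, including vessels, axons and cells in which Cre is not active, and the RNA was amplified from a low input. Nothing in the labels says that the 4 libraries of a genotype came from 4 different mice, and their titles carry a further number that some libraries share, so the p-values measure the spread between these libraries, which may be partly technical.

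Between 8682872 and 13539670 reads per library fell on the 12148 genes, and 1 read was worth 0.0739 to 0.115 CPM (a gene's count after scaling every library to the same total). Since no molecular identifiers were used, the read numbers given for a gene speak for counting error only. The targeted gene Tgfbr2 averaged 7.48 ± 0.22 log2 CPM in control and 7.20 ± 0.28 in mutant libraries (SD, n = 4 each), a log2 fold change of -0.29 with an adjusted p of 0.79 (limma-trend), and the highest mutant library, 56, lay within the control range. Without library 56 it was -0.42, with an unadjusted p under 0.05. The count is over the whole gene, so reads from undeleted exons and from undeleted cells stay in it. Of 6 odontoblast markers, Bglap and Nes were lower in the mutants by the study's call of an altered gene, which is an unadjusted p under 0.05 with a difference of at least 1.5-fold (3.65% of all genes were), and the 6 summed to 47700 to 101800 CPM in control and 29170 to 62870 CPM in mutant libraries. Pulp mesenchyme markers summed to 4652 to 6210 and 3942 to 6588 CPM with none of 6 altered, and no marker of either list was at 0 reads in any library. Library 56 stood apart: the ameloblast products Amelx, Ambn and Enam (enamel matrix) took 19.2% of its reads, against 0.334% to 2.87% in the other 7 libraries, and 7 markers of dental epithelium summed to 4456 CPM in it, against 1405 CPM in library 55 and 341 to 568.1 CPM in the other 6. The other 3 ameloblast markers were not highest there of all 8 libraries, but library 56 was the highest mutant library for each of them. Klk4 was at 41.95 CPM in library 56, at 18.36 to 37.2 CPM in the other mutants and at 153.7 CPM or more in every control. Amtn and Odam were highest in control 49. Values without library 56 are given beside the genes whose difference it moves most.

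None of the 8 measured ephrin and Eph genes was altered by that call, while 5.77% of all 12148 genes were. Only Epha4 of the 8, a receptor of axon guidance, had an unadjusted p under 0.05 (8.38% of all genes did, 3.3% on the higher and 5.08% on the lower side), at 1.42-fold higher in the mutants. None of the 8 had an adjusted p under 0.05 by limma-trend (0.947% of all genes did), and in none of them did all mutant libraries lie on one side of all controls (5.27% of all genes). The next smallest p was that of Efna5, a repellent ligand of growing axons, with a mean 1.49-fold higher in the mutants. Of the remaining 6 genes, 3 had a higher and 3 a lower mean in the mutants, with differences between -0.15 and 0.22 on the log2 scale. The median log2 fold change of the 8 genes was 0.11, beside -0.01 for all genes, and their standard errors ran from 0.14 to 0.29. In RNA from whole pulp, fewer cells of a type and less RNA per cell cannot be told apart.

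**Figure D1:**
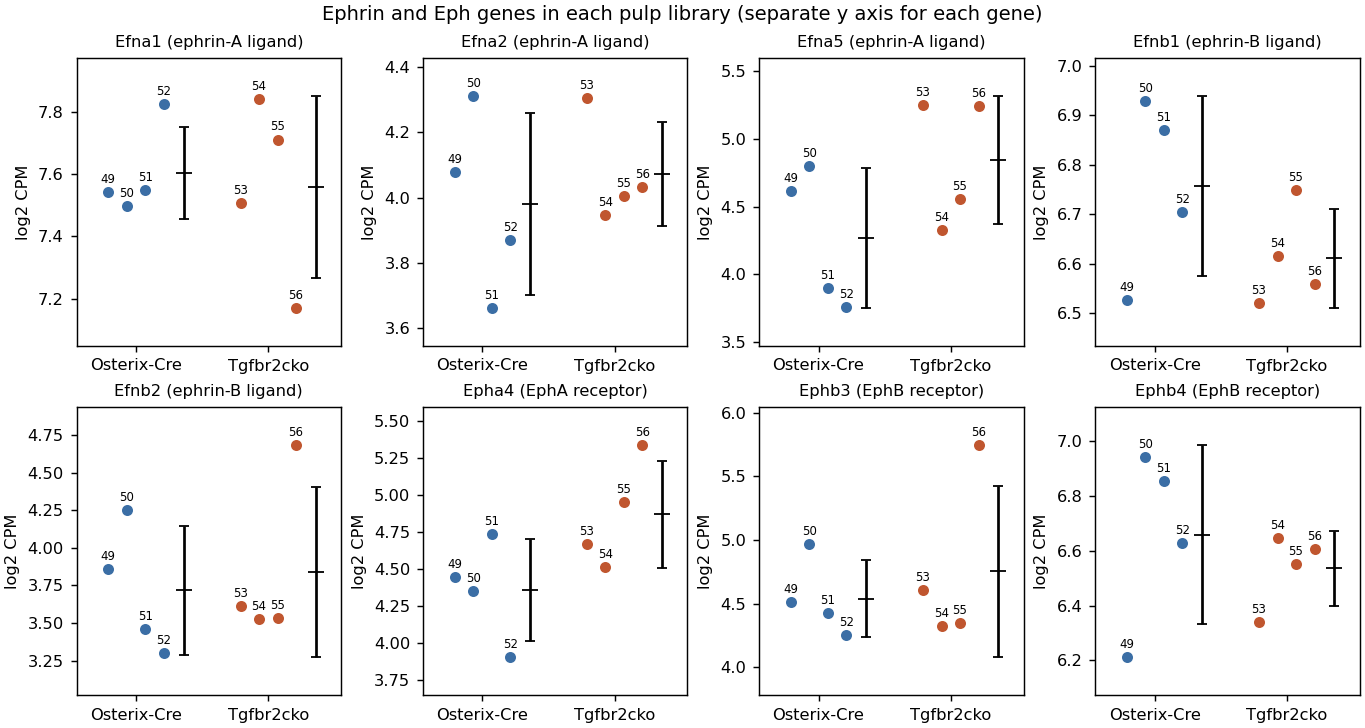
Values of the 8 measured ephrin and Eph genes in each library, in log2 CPM, with a separate y axis for each gene. Points are libraries with their numbers, blue for Osterix-Cre and orange for Tgfbr2cko, and the black bar beside them is the mean with 1 SD (n = 4). In all 8 panels the groups overlap, and library 56 alone holds the highest Efnb2 and Ephb3 values and the lowest Efna1 value.

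The regions upstream of the start sites of Epha4 and Efna5 are shown because, among the 8 genes, these had the largest differences between the genotypes. Tgfbr2 signals through Smad proteins, which bind the letters CAGAC, so CAGAC and its reverse complement GTCTG were searched for on both strands in the 250 bases before each RefSeq start site of the build GRCm38.p6. All 8 genes matched an entry, with 9 windows in all since Efna1 has 2 start sites. The capitals mark CAGAC or GTCTG. The window of Epha4 lies at chr1:77515089-77515338 on the minus strand and that of Efna5 at chr17:62881318-62881567 on the minus strand, both written 5′ to 3′ in the direction of the gene.
Epha4: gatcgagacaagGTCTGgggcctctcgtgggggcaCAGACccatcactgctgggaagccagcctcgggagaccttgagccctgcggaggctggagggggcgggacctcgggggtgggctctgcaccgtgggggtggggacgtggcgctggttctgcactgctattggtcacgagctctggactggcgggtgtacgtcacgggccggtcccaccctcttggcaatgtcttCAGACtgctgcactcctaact
Efna5: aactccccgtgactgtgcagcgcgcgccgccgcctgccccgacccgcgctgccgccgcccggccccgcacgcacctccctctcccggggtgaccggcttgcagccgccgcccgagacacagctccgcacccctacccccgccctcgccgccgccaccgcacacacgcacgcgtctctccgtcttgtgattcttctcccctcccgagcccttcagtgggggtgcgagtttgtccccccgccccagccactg
The window of Epha4 held 3 matches, 14 CpG dinucleotides and 66% G and C. That of Efna5 held no match, 32 CpG dinucleotides and 74.8% G and C. Of the 9 windows, 7 had a match (6 of the 8 genes), and 42.2% of all 32851 mouse windows of this length had one. The medians of all those windows were 52.4% G and C and 6 CpG dinucleotides, below the values of both windows shown. The longer palindrome GTCTAGAC was in no window of the 8 genes and in 0.167% of all windows. A match of letters is a description and no binding site.

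Levels of different genes were compared per length, as reads per kilobase of exon, scaled to the counted reads of the library (RPKM). Efna1 was by far the most abundant of the 8 genes in control pulp, at 106.7 ± 11.5 RPKM (SD, n = 4), above 96.1% of all genes on this scale. Efnb1 followed at 31.5 ± 3.86 and Ephb4 at 22.2 ± 4.66. Below these 3, the ligand Efna2 stood at 7.48 ± 1.45, Efna5 at 5.001 ± 1.76, Ephb3 at 3.56 ± 0.793, Epha4 at 2.60 ± 0.594 and Efnb2 at 1.98 ± 0.602, the last above 17.4% of all genes.

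At the first 3 steps of this order the control ranges did not overlap. The mean of Efna1 was 3.39 times that of Efnb1, Efnb1 was 1.42 times Ephb4, and Ephb4 was 2.96 times Efna2. The values of Ephb4 alone ran from 15.98 to 26.5 RPKM, a span wider than its step from Efnb1. At each later step the ranges overlapped: those of Efna2 and Efna5 at a ratio of 1.497, of Efna5 and Ephb3 at 1.41, of Ephb3 and Epha4 at 1.37 and of Epha4 and Efnb2 at 1.32. Within each of the 4 control libraries Efna2 was nevertheless above Efna5 and Efna5 above Ephb3, and the last 2 steps held in 3 of 4. The mutant means came in the same order, from 104.5 for Efna1 to 2.22 for Efnb2. The annotated length matters for the lower ranks. With the mean transcript length in place of all exons, Ephb3 moved to rank 4, Efna5 to rank 5 and Efna2 to rank 6, while the first 3 ranks were kept.

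**Figure D2:**
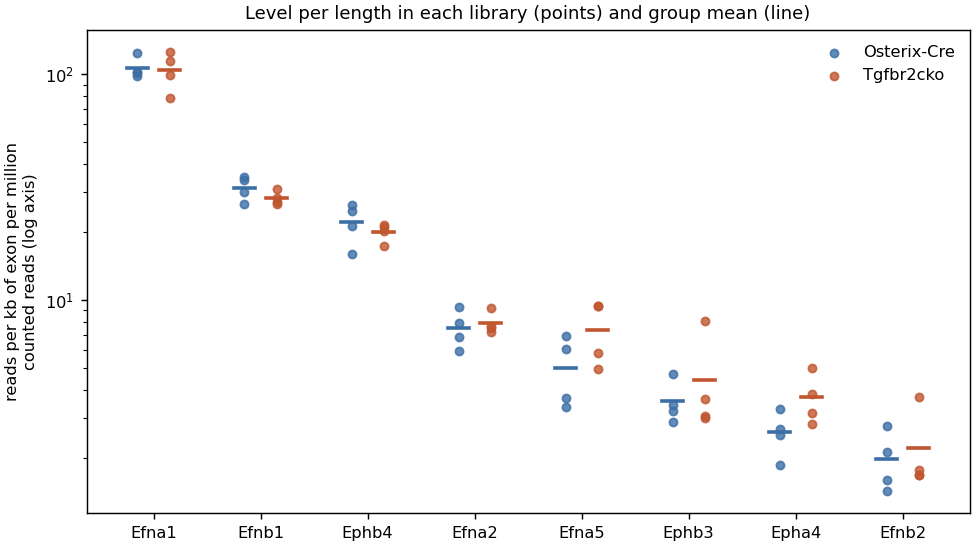
Levels of the 8 genes in each library, in RPKM on a log axis, ordered by the control mean. Points are libraries and lines are group means (n = 4 each, blue for Osterix-Cre, orange for Tgfbr2cko). Efna1 lies at 78.7 RPKM or more in all 8 libraries, and from Efna2 to Efnb2 the ranges of neighbouring genes overlap.

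Among the ephrin-A ligands, Efna1 was first found as a gene induced by inflammatory signals in endothelium and is the usual ligand of Epha2. Efna1 (ENSMUSG00000027954.9, chr3:89271733-89281142, minus strand, GRCm38) was at 7.54, 7.499, 7.55 and 7.82 log2 CPM in control libraries 49 to 52 and at 7.51, 7.84, 7.71 and 7.17 in mutant libraries 53 to 56. The groups overlapped throughout, with library 54 the highest and library 56 the lowest of all 8. Its log2 fold change was -0.05 (SE 0.16, 95% interval -0.40 to 0.31, limma-trend adjusted p = 0.998), and an exact permutation of the 8 libraries, with 70 arrangements, gave p = 0.771. With 1614 to 2818 reads per library, the interval of the ratio ran from 0.758 to 1.24. Without library 56 the difference was 0.08, with the sign turned. CPM are shares of all counted reads, and enamel matrix took 19.2% of those of library 56. With library totals without enamel matrix reads, the Efna1 difference was 0.03. The part of this share in the low Efna1 value of library 56 was not tested.

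Efna2 works with Efna5 in the mapping of retinal axons onto their target. Efna2 (ENSMUSG00000003070.6, chr10:80179482-80190010, plus strand) was at 4.08, 4.31, 3.66 and 3.87 log2 CPM in control libraries 49 to 52. Mutant libraries 53 to 56 were at 4.30, 3.95, 4.01 and 4.03. Here the control libraries held both the highest and the lowest value, and all 4 mutant libraries lay inside the control range. This gave a log2 fold change of 0.09 (SE 0.20, 95% interval -0.33 to 0.51, limma-trend adjusted p = 0.998, exact permutation p = 0.571), from 120 to 221 reads per library.

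Efna5, which repels growing axons that carry EphA receptors, had the largest difference of the 8 genes. For Efna5 (ENSMUSG00000048915.12, chr17:62604184-62881317, minus strand) the controls were at 4.62, 4.80, 3.90 and 3.76 log2 CPM and the mutants at 5.25, 4.33, 4.56 and 5.24. Mutant libraries 53 and 56 lay above every control, libraries 54 and 55 lay within the control range, and the controls themselves fell into a higher pair, 49 and 50, and a lower pair, 51 and 52. Within each genotype these values followed the further number in the titles, which is 4 for libraries 49 and 50, 3 for libraries 53 and 56 and 2 for libraries 54 and 55, as well as for control 51. The mutant mean was higher by 0.58 on the log2 scale (SE 0.28, 95% interval -0.03 to 1.18, unadjusted p = 0.0607, limma-trend adjusted p = 0.634), and the exact permutation test gave p = 0.171. On the linear scale this was 1.49-fold with an interval of 0.979 to 2.27. The direction was the same in 18 of 18 alternative analyses, and Efna5 was altered in 4 of them: with the libraries of a genotype and title number averaged, which leaves 3 control and 2 mutant values (0.72), without control library 49 (0.69) or 50 (0.75), and without mutant library 54 (0.75). Without library 56 it was 0.44, with a limma-trend adjusted p of 0.743. With the enamel matrix mean as a term in the model it was 0.46, and the part of epithelial RNA in the Efna5 difference was not tested.

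Among the ephrin-B ligands, Efnb1 is X-linked and is needed for the shaping of the skull and face. Efnb1 (ENSMUSG00000031217.8, chrX:99136130-99148991, plus strand) was at 6.53, 6.93, 6.87 and 6.70 log2 CPM in the controls and at 6.52, 6.62, 6.75 and 6.56 in the mutants. The groups overlapped, with controls 50 and 51 above every mutant library. The difference was -0.15 on the log2 scale (SE 0.14, 95% interval -0.45 to 0.15, limma-trend adjusted p = 0.948, exact permutation p = 0.229), the smallest standard error of the 8 genes, at 814 to 1276 reads per library. The interval allows a ratio from 0.734 to 1.11, so 1.5-fold in either direction lies outside it, as it does for Efna1, Efna2 and Ephb4.

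Efnb2 marks arterial endothelium and is the partner of Ephb4, the receptor of venous endothelium. For Efnb2 (ENSMUSG00000001300.16, chr8:8617434-8661242, minus strand) the controls were at 3.86, 4.25, 3.46 and 3.30 log2 CPM and the mutants at 3.61, 3.53, 3.53 and 4.68. Library 56 was the highest of all 8, and the other 3 mutant libraries lay close together inside the control range. Its mean log2 fold change of 0.12 had a wide error (SE 0.29, 95% interval -0.51 to 0.76, limma-trend adjusted p = 0.998, exact permutation p = 0.714), from 100 to 347 reads per library. Without library 56 it was -0.16 (limma-trend adjusted p = 0.943). The interval of the ratio, 0.701 to 1.69, includes 1.5-fold on the higher side.

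For Ephb4 (ENSMUSG00000029710.15, chr5:137350109-137378669, plus strand), the controls were at 6.21, 6.94, 6.85 and 6.63 log2 CPM and the mutants at 6.34, 6.65, 6.55 and 6.61. Control library 49 was the lowest and control 50 the highest, and all 4 mutant libraries lay between them. On the log2 scale the difference was -0.12 (SE 0.17, 95% interval -0.49 to 0.24, limma-trend adjusted p = 0.990, exact permutation p = 0.543), at 718 to 1318 reads per library. It was -0.27 without control 49 and -0.029 without control 50. The exons of Ephb4 overlap those of the antisense gene Zan over 0.711% of their length, and whether the counting used strand is not given in the sources used here.

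Both vessel genes can be set beside the vessel markers. Of 9 endothelial markers, 2 were altered, Tek and Cldn5, both lower in the mutants, where 3.65% of all genes were altered and lower and 5.77% altered in either direction. The sum of the 9 markers ran from 402.3 to 545.7 CPM in the controls and from 328 to 421.6 in the mutants. Of 5 measured arterial markers, Gja4, Sox17 and Dll4 were altered and lower, with the list's sum at 456.1 to 674.5 CPM in the controls and 260.3 to 476.8 in the mutants (402 or more without library 56). Of 4 venous markers, Ackr1 was altered and lower, and the sums were 100.3 to 138.8 and 100.7 to 169 CPM. Of 5 measured markers of pericytes and smooth muscle, Rgs5 and Pdgfrb were altered and lower, with sums of 405.4 to 539.5 and 293.3 to 379.6 CPM. No vessel marker was at 0 reads in any library. The arterial ligand Efnb2 and the venous receptor Ephb4 were not among the altered genes, and whether either differed from the markers of its vessel was not tested.

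Epha4, the 1 measured EphA receptor of the 8 genes, is known for stopping growing axons and binds ephrins of both classes. Epha4 (ENSMUSG00000026235.14, chr1:77367185-77515088, minus strand) was at 4.45, 4.35, 4.74 and 3.91 log2 CPM in the controls and at 4.67, 4.51, 4.96 and 5.34 in the mutants. Mutant libraries 55 and 56 lay above every control, libraries 53 and 54 lay within the control range, and all 4 mutants were above the control median. The log2 fold change was 0.51 (SE 0.22, 95% interval 0.03 to 0.99), or 1.42-fold with an interval of 1.02 to 1.99. Its unadjusted p was 0.0405 by limma-trend, its adjusted p was 0.548, and the exact permutation test gave p = 0.0857. It rested on 153 to 547 reads per library.

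The direction for Epha4 was the same in 18 of 18 alternative analyses, from 0.35 to 0.63 on the log2 scale, with an unadjusted limma p under 0.05 in 8 of them. Without mutant library 56 the log2 fold change was 0.35 (limma-trend adjusted p = 0.709), without control library 52 it was 0.36, and with the enamel matrix mean as a term in the model it was 0.35, and in none of these 3 was the unadjusted p under 0.05. The 2 libraries with the highest Epha4 values, 56 and 55, were also those with the largest sums of dental epithelium markers. Among the 7 epithelial markers, Krt17 and Cdh1 were altered and higher in the mutants (2.12% of all genes were), none of the 7 was at 0 reads in any library, and the part of epithelial RNA in the Epha4 difference was not tested. Of 4 measured axon markers and 3 measured Schwann cell markers none was altered or at 0 reads, and the axon markers summed to 95.5 to 119.3 CPM in control and 111.8 to 186.9 CPM in mutant libraries.

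The genes whose values over the 8 libraries were most like those of Epha4 were Usp13, Pdzd2 and Baz1a. The measure was the root mean square difference of the mean-centred log2 values, which was 0.13 for Usp13, 0.14 for Pdzd2 and 0.16 for Baz1a. The median over all genes was 0.51, and the SD of Epha4 itself over the 8 libraries was 0.42.

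Ephb3 is an EphB receptor known for placing cells along the intestinal crypt. Ephb3 (ENSMUSG00000005958.14, chr16:21204755-21223305, plus strand) was at 4.51, 4.97, 4.43 and 4.26 log2 CPM in control libraries 49 to 52. Mutant libraries 53 to 56 were at 4.61, 4.32, 4.35 and 5.74. Library 56 stood above all others, and the other 3 mutant libraries lay within the control range. The mean difference was 0.22 on the log2 scale (SE 0.29, 95% interval -0.41 to 0.84, limma-trend adjusted p = 0.990, exact permutation p = 0.686), from 176 to 725 reads per library. Without library 56 it was -0.11 (limma-trend adjusted p = 0.950). In CPM, Ephb3 was at 53.5 in library 56 and at 19.1 to 31.2 in the other 7, while the 7 epithelial markers summed to 3.17 times the next highest library. The part of epithelial RNA in these values was not tested.

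**Figure D3:**
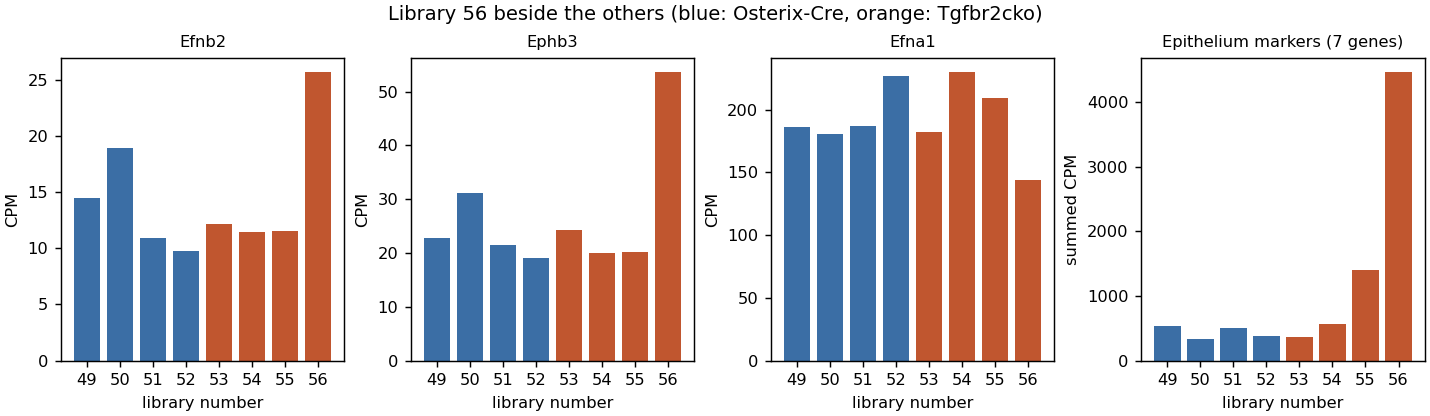
Efnb2, Ephb3 and Efna1 in each library in CPM, beside the summed CPM of 7 dental epithelium markers, with bars from 0, blue for Osterix-Cre and orange for Tgfbr2cko. Library 56 has the highest Efnb2 (25.6 CPM), Ephb3 (53.5 CPM) and marker sum (4456 CPM) and the lowest Efna1 (144.1 CPM). CPM are shares of all counted reads, of which enamel matrix took 19.2% in library 56.

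The other ephrin and Eph genes were Efna3, Efna4, Efnb3, Epha2, Epha7, Ephb1 and Ephb6, 7 measured of 12 named, and Epha1, Epha5, Epha6, Epha8 and Epha10 were not analysed here. Of these 7 genes, 1 was altered and higher, Ephb1 (2.12% of all genes were), and 2 had groups that did not overlap, Epha7 and Ephb1, both higher in the mutants (2.13% of all genes did not overlap in that direction). The same 2 had an unadjusted p under 0.05 by limma-trend (8.38% of all genes did) and none of the 7 had an adjusted p under 0.05. Their median log2 fold change was 0.27.

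Ephb1, a receptor that steers retinal axons at the optic chiasm, was at 2.76, 2.72, 2.60 and 1.91 log2 CPM in the controls and at 2.86, 3.13, 3.56 and 4.25 in the mutants. Every mutant library lay above every control, with libraries 55 and 56 the highest, as for Epha4. The log2 fold change was 0.95 (SE 0.31, 95% interval 0.27 to 1.63), or 1.94-fold. By limma-trend its unadjusted p was 0.00967 and its adjusted p 0.259, and the exact permutation p of 0.0286 is the smallest that 4 against 4 allows. Without library 56 it was 0.69 (limma-trend adjusted p = 0.424) and still altered. With the enamel matrix mean as a term in the model it was 0.68, and also altered. Libraries 55 and 56 had the largest sums of dental epithelium markers as well, and the part of epithelial RNA in the Ephb1 difference was not tested. Ephb1 is on the list of axon genes that the study chose from these same libraries, so its difference is no independent evidence, and it rests on 38 to 257 reads per library.

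Epha7, an EphA receptor of axon guidance and of the developing cortex, was at 3.92, 4.19, 4.41 and 3.78 log2 CPM in the controls and at 4.60, 4.55, 4.42 and 4.80 in the mutants. The groups did not overlap, by a narrow margin between control 51 and mutant 55. The log2 fold change was 0.52 (SE 0.19, 95% interval 0.11 to 0.92, unadjusted p = 0.0166, limma-trend adjusted p = 0.347, exact permutation p = 0.0286), and without library 56 it was 0.45 (limma-trend adjusted p = 0.464). The unadjusted p was no longer under 0.05 without control 52 (0.42) and with library weights (0.37). The remaining 5 genes had unadjusted p-values from 0.115 to 0.955. These were Efnb3 at -0.41, Efna3 at 0.40, Efna4 at 0.27, Ephb6 at 0.13 and Epha2 at 0.01 on the log2 scale. Efnb3 was -0.21 without library 56 and -0.62 without control 49, where it was altered, and its unadjusted p was also under 0.05 without mutant 55 (-0.56) and with title numbers averaged (-0.45). Efna3 was 0.19 without library 56 and 0.77 without mutant 53, where it was altered. Antisense genes overlap 14.1% of the exons of Efna3 and 10.51% of those of Efna4. How reads in these overlaps were assigned is not given in the sources used here, so they may have been added to these values or lost from them.

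**Figure D4:**
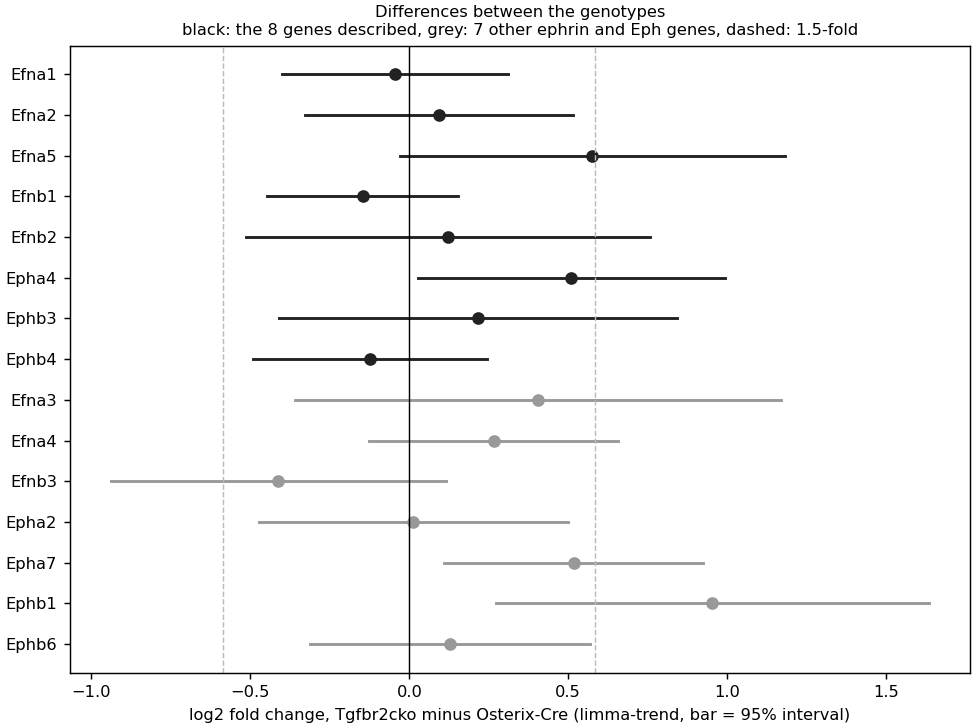
Log2 fold changes, Tgfbr2cko minus Osterix-Cre, with 95% intervals from limma-trend for the 8 genes described (black) and the 7 other measured ephrin and Eph genes (grey), with dashed lines at 1.5-fold. The intervals of Epha4, Epha7 and Ephb1 lie above 0, and those of the other 12 genes include 0.

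Transcripts of 35 of 37 named partners of the pathway were measured, from adaptors and enzymes inside the cell to membrane proteins that anchor or cleave ephrins and their receptors. Their median log2 fold change was 0.00. By limma-trend no adjusted p of these 35 genes was under 0.05, and the 2 with an unadjusted p under 0.05 were both altered and lower in the mutants, a share close to that over all genes (5.77% altered, 3.65% altered and lower, 8.38% with an unadjusted p under 0.05). One was Cav1, the main coat protein of caveolae, at 6.64 ± 0.35 log2 CPM in control and 5.84 ± 0.29 in mutant libraries (SD, n = 4 each), which fell by 0.80 on the log2 scale (SE 0.20, unadjusted p = 0.00136, limma-trend adjusted p = 0.0885, exact permutation p = 0.0286). The other was Arhgef15, an exchange factor of the ephexin family that is abundant in endothelium, at 4.06 ± 0.16 and 3.28 ± 0.51, which fell by 0.78 (SE 0.25, unadjusted p = 0.00804, limma-trend adjusted p = 0.236, exact permutation p = 0.0286). The groups of both genes did not overlap (3.14% of all genes did not, with the mutants lower), and both genes are also expressed in vessels, whose markers are given above. The kinases, GTPases and adaptors of forward signalling, the partners of reverse signalling and the proteases Adam10 and Rhbdl2 that cleave ephrins were not altered.

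**Figure D5:**
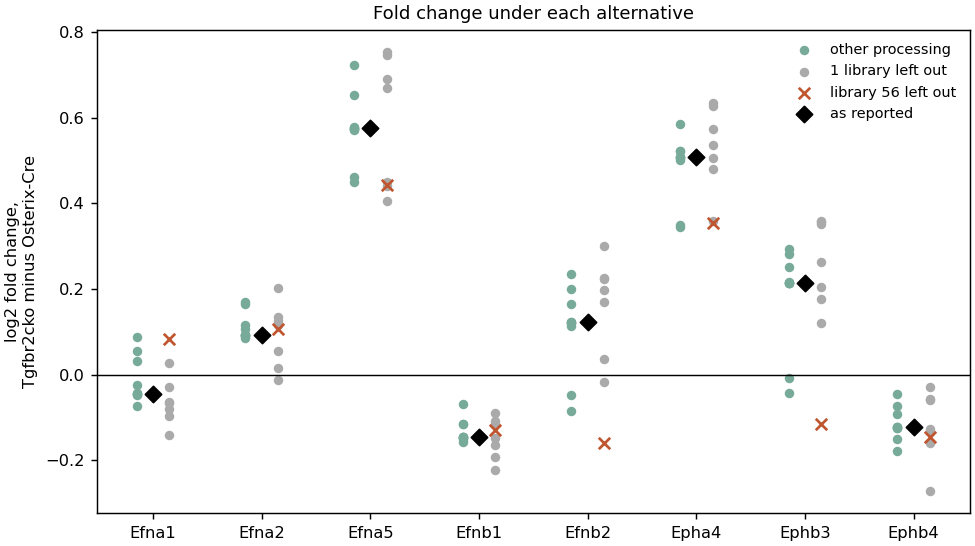
Log2 fold change of each of the 8 genes under every alternative analysis, Tgfbr2cko minus Osterix-Cre: black diamonds as reported, green points for other processing, grey points with 1 library left out and orange crosses without library 56. Efna5 and Epha4 stay above 0 and Efnb1 and Ephb4 below 0 in all 18 alternatives, whereas Efna1, Efna2, Efnb2 and Ephb3 lie on both sides of 0.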

How the data were processed

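DP RNA of P7 first molars was analysed in 8 libraries, 4 of each genotype, grouped by the genotype in the labels. Per the methods and the submitters' processing notes, the authors amplified RNA from a low input (SMART-seq HT, Nextera XT), used fastp 0.21.0, aligned reads with HISAT2 2.1.0, counted them with featureCounts (Subread 2.0.1) against GENCODE M14 on GRCm38.p5 and kept genes passed by the CLEAR workflow, which removes genes of low values. The deposited values are log2 CPM from voom, with 0.5 added to each count. The reads behind all 97184 values were recovered as whole numbers to within 3.61e-08. Gene positions and exon lengths came from GENCODE M21.

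The genotypes were compared on the deposited log2 values of all 12148 genes with limma 3.58.1 (R 4.3.3), without covariates and with an intensity trend. These tests were two-sided, with Benjamini-Hochberg adjustment. For single genes a two-sided exact permutation test was added, whose smallest p is 0.0286. All ephrin and Eph genes measured are named, and signalling partners with an unadjusted p under 0.05. The call of 1 marker gene is not reported here. The genes and lists were chosen with earlier results of these data known. Alternatives were limma without the trend, library weights, voom weights, quantile normalization, median centring, a mean log2 value of at least 3, 2 added to each count, averaged title numbers, the enamel matrix mean as a term and each library left out. Library totals without enamel matrix reads were added after the data were seen. Figures were drawn with matplotlib 3.10.9.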

Additional observations from a re-analysis of the deposited data

Results flagged for a closer look

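In 30 groups of 4 libraries (15 ephrin and Eph genes in 2 genotypes), 3 held a library whose gap to its nearest neighbour took more of the group's range than Dixon's 95% limit allows, which chance exceeds in about 1 in 20 groups. Efnb2 was at 4.68 log2 CPM in mutant library 56, and the other 3 mutant libraries lay between 3.53 and 3.61. Library 56 also held the most enamel matrix reads. Efna1 was at 7.82 log2 CPM in control library 52, against 7.499 to 7.55 in the other controls. In the same library Efna4 was at 4.03 log2 CPM, against 4.30 to 4.35 in the other controls, and without library 52 the log2 fold change of Efna1 was 0.03.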

How the results depend on the processing

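Over the 15 measured ephrin and Eph genes, 226 of the fold changes under the alternatives kept their direction and their side of an unadjusted p of 0.05, 12 lost it, 8 gained it and 22 turned in sign. With library weights, Efna1 was 0.089, Efnb2 -0.047, Ephb3 -0.042 and Epha2 -0.011, and Tgfbr2 was -0.42, past an unadjusted p of 0.05. With the enamel matrix mean in the model, Efna1 was 0.055, Efnb2 -0.086, Ephb3 -0.0088 and Epha2 -0.10. Epha2 was -0.0044 with title numbers averaged, and Efna1 was 0.032 with library totals without enamel matrix reads. Leaving out 1 library gave -0.14 to 0.084 for Efna1, -0.013 to 0.20 for Efna2, -0.16 to 0.30 for Efnb2, -0.11 to 0.36 for Ephb3, -0.11 to 0.21 for Epha2, -0.0064 to 0.26 for Ephb6 and -0.42 to -0.22 for Tgfbr2, which passed an unadjusted p of 0.05 without control 49 and without mutant 56. Of the 8 genes, 0 to 2 were altered with 1 library left out, Efna5 without controls 49 or 50, Epha4 without control 51 and both without mutant 54. There was 1 with title numbers averaged (Efna5) and 1 with totals without enamel matrix reads (Epha4). Of the other 7 genes, 1 to 2 were altered with 1 library left out (beside Ephb1, Efnb3 without control 49, Epha7 without control 51 and Efna3 without mutant 53), 2 with totals without enamel matrix reads and 0 at a mean log2 value of at least 3, where Ephb1 was not tested. Genes with an adjusted p under 0.05 numbered 115 of all 12148 in the reported comparison, 258 with library weights and 65 to 165 with 1 library left out (65 without control 51, 70 without control 52, 72 without mutant 55). Of the altered genes, 63.2% were lower in the mutants, 53% without library 56 and 50.7% with totals without enamel matrix reads. By mean transcript length, control levels in RPKM were 129.7 for Efna1, 53.5 for Efnb1, 9.73 for Ephb3, 8.63 for Efna5, 6.11 for Epha4 and 4.92 for Efnb2. The cause of these changes was not tested. The genotypes share only title number 2 (control 51, mutants 54 and 55), and no fit with title number as a block was run. At 100 to 725 reads per library, the 95% intervals of Efna5, Efnb2, Epha4 and Ephb3 include 1.5-fold.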
